A study of Saccharomyces cerevisiae with 23 samples.

Results

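Hyperosmotic stress was followed here in wild-type yeast between 30 and 60 min after sorbitol was added, to see which early transcript changes were kept, which were reversed and which came late. The comparison rests on 4 of the 23 arrays of the series, 2 at 60 min and 2 at 30 min, and was taken as the 60 min value minus the 30 min value within replicate A and within replicate B. The arrays were Agilent 2-color expression arrays, on which RNA of the stressed culture was hybridized together with RNA of an unstressed wild-type culture of the same replicate set (0 min). The sample carried Cy3 in replicate A and Cy5 in replicate B, so the dyes were exchanged between replicates. All values are log2 ratios of sample over the 0 min reference, in which 1 unit is a 2-fold change, and the reference drops out of the 60 minus 30 min difference.

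The 60 min group and the 30 min group were both wild-type Saccharomyces cerevisiae in yeast complete medium at 30 °C with 1.2 M sorbitol, reached by mixing culture with medium of 2.4 M sorbitol, and the 0 min reference was taken before mixing. The wild type was built as the control of 3 mutant strains that lack sumoylation sites in the corepressor subunits Tup1, Cyc8 or both, and like them it carried a His6-FLAG tag on SMT3, the gene of the modifier SUMO. The study's strain list gives its wild-type isolates with TUP1 and CYC8 put back beside marker genes in place of the deleted originals. The 2 replicates were cultures of isolates from separate transformations, and at each replicate the 30 and 60 min samples came from a time course of a culture.

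Cells in high osmolarity lose water, and the MAP kinase Hog1, at the end of the high osmolarity glycerol (HOG) pathway, drives the synthesis and retention of glycerol, which restores the balance. A broader environmental stress response runs beside it. In that response stress-protective genes rise and genes for making ribosomes fall, and both moves are known to be transient as cells adapt and resume growth.

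The array held 6256 probes, each in replicate spots and each for a different open reading frame, and 6131 of them entered the tests. The sample channel was well above background on all 4 wild-type arrays for 5981 of the 6131 probes, and 0 spots were saturated. Replicates A and B correlated at r = 0.896 at 60 min and r = 0.931 at 30 min across probes, which are not independent replicates of the condition. The spread of the log2 ratios across probes was narrower at 60 min (SD 0.652 in A and 0.627 in B) than at 30 min (SD 0.857 in A and 0.903 in B). On an array that compared the unstressed cultures of replicate B and replicate A, the SD was 0.235 and 3 SD was 0.706. The 4 arrays lay on 3 slides, with both replicate A arrays on the same slide and the replicate B arrays on different ones.

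By limma, with Benjamini-Hochberg adjustment over all probes, 1765 of 6131 probes were higher at 60 than at 30 min (28.8%) and 2063 were lower (33.6%). The mean change was at least 2-fold for 363 of the higher and 384 of the lower probes. Of the 3828 probes called, 3816 moved the same way in both replicates. The 60 minus 30 min differences of A and B correlated at r = 0.846 across probes, and their median over all probes was −0.05 in each. The count depends on how the ratios are made. The deposited log ratios of the extraction software gave 769 higher and 698 lower probes, and scaling all arrays to 1 common spread gave 879 and 846. That scaling widens the 60 min ratios, and it changed the sign of the median change of 11 of the 32 gene lists described below. A change of at least 0.65 in both replicates, the cutoff in the study's methods, was passed by 546 higher and 659 lower probes.

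**Figure D1:**
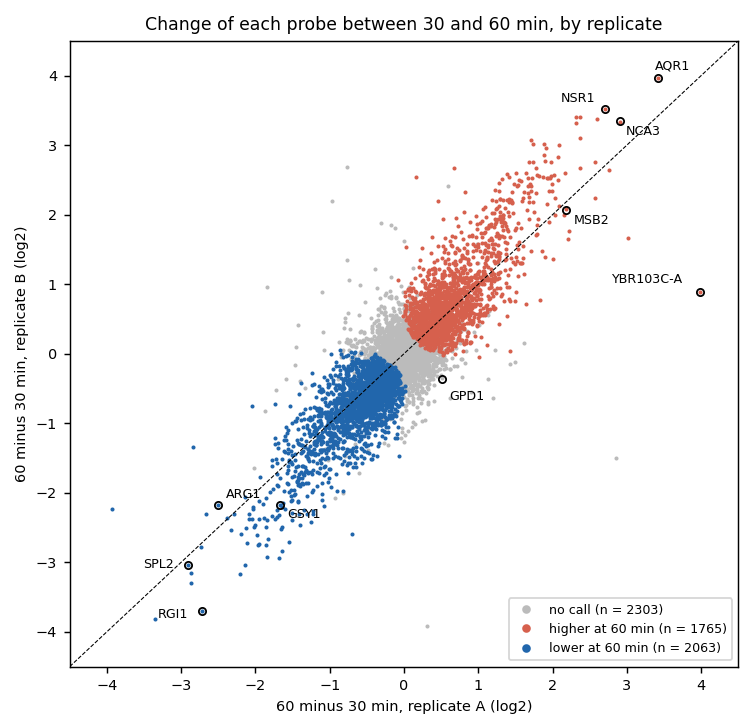
Each point is 1 of 6131 probes, with the log2 difference between 60 and 30 min in replicate A on the x axis and in replicate B on the y axis, colored by the limma call. The 1765 higher and 2063 lower probes lie along the diagonal, while YBR103C-A moved by 3.98 in A and 0.89 in B. 1 probe lies outside the axes.

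Early changes were reversed more often than kept on the loess-normalized ratios, but not after scaling to a common spread, which gave 979 reversed and 1108 kept. At 30 min against 0 min 2386 probes were higher (38.9%) and 2297 lower (37.5%), and at 60 min against 0 min 1868 were higher (30.5%) and 1814 lower (29.6%). An early change was counted as reversed where the probe was called in the opposite direction at 60 against 30 min. This held for 3010 of the 4683 early changes, 1590 early rises (66.6% of them) and 1420 early falls (61.8%). It was counted as kept where the probe was still called the same way at 60 against 0 min and not called in the opposite direction at 60 against 30 min, which held for 1330 probes, 628 of them raised and 702 lowered. A further 343 early changes met neither definition. The 3 comparisons share the 30 min arrays and the reference, so an error at 30 min enters both an early change and its reversal.

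Reversal was partial for some probes and went past the starting level for others. Of the 1590 reversed early rises, 561 were still above the 0 min reference at 60 min, 704 no longer differed from it by the test, and 325 had fallen below it. Of the 1420 reversed early falls, 380 were still below the reference, 672 no longer differed by the test and 368 had risen above it. The median reversed early rise stood at 0.12 in A and 0.00 in B at 60 min, against 0.70 and 0.70 at 30 min. The median reversed early fall stood at −0.04 in A and 0.06 in B at 60 min, against −0.66 and −0.68 at 30 min. Among the kept changes, 101 early rises rose further and 172 early falls fell further between 30 and 60 min. Late changes, not called at 30 min but called at 60 min against both 0 and 30 min, numbered 512, with 235 rises and 277 falls.

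The reversal was also read in a replicate that had not been used to choose the probes. The 1106 probes at least 0.65 above the reference at 30 min in replicate A had a median 60 minus 30 min change of −0.80 in replicate B, and 61.4% of them fell there by at least 0.65, against 18.2% of all probes. The 906 probes at least 0.65 below the reference in A had a median change of 0.78 in B, and 59.6% rose there by at least 0.65, against 15.2% of all probes. With B used for choosing and A for reading, 43.5% of 1133 raised probes fell in A, against 14.2% of all probes, and 45.1% of 949 lowered probes rose, against 12% of all probes. Replicate A therefore gave the same picture with smaller steps, with medians of −0.57 and 0.59. Both replicates had the narrower spread at 60 min (SD 0.652 in A and 0.627 in B, against 0.857 and 0.903 at 30 min). This reading used the loess-normalized ratios, and whether it holds after scaling to a common spread was not tested.

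**Figure D2:**
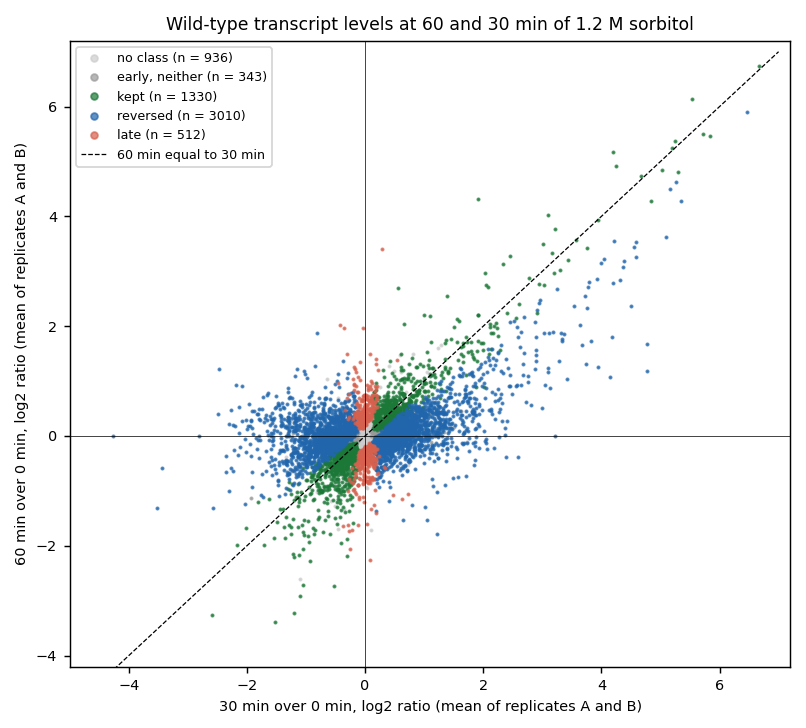
Each point is a probe, with its mean log2 ratio to 0 min at 30 min on the x axis and at 60 min on the y axis (2 replicates each). Reversed changes (3010) lie between the dashed line of equal levels and the horizontal line of no change or beyond it, kept changes (1330) lie near the dashed line, and late changes (512) spread along the vertical axis.

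Of the 12 largest rises, all but that of NCA3, a late rise described further on, were in transcripts below the 0 min level at 30 min. AQR1, a plasma membrane transporter that exports amino acids and short-chain acids, stood at 1.15 in A and 1.29 in B at 60 min, against −2.26 and −2.68 at 30 min. That is a rise of 3.69 ± 0.23 (limma SE, n = 2 a time point, adjusted p = 6.63e-08) and ended above the unstressed level. NSR1, a nucleolin-like protein of ribosomal RNA processing, stood at 0.55 and 1.30 at 60 min, against −2.16 and −2.22 at 30 min. SYO1, a carrier of ribosomal proteins into the nucleus, rose by 2.99, RRN11, a subunit of an RNA polymerase I initiation factor, by 2.89, and the ribosome assembly factor RRS1 by 2.81. HPT1, which salvages purines, was at −1.30 in A and 0.14 in B at 60 min, against −3.61 and −3.27 at 30 min, so its replicates disagreed on how far it had come back. EXG1, a glucanase of the cell wall, rose by 2.66, and NRP1, an RNA-binding protein, by 2.55. The probes YGR272C and EFG1, now a single gene of ribosomal RNA processing in the R64 assembly, rose by 2.74 and 2.52, and YDL038C, now part of the gene PRM7, rose by 2.70. In all of these the 60 min value was at least 2 units above the 30 min value of the same replicate, and the groups did not overlap.

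The largest falls belonged to transcripts that had been induced early. BDH2, which codes for a putative butanediol dehydrogenase, was at 1.42 in A and 0.96 in B at 60 min, against 4.77 and 4.77 at 30 min, a fall of 12-fold (log2 change −3.58 ± 0.15, adjusted p = 7.49e-09). RGI1, needed for energy metabolism under respiratory growth, was at 0.51 and −0.49 at 60 min, against 3.23 and 3.20 at 30 min, and so lay on either side of the unstressed level. PRR2, a protein kinase gene, was at 2.10 and 1.26 at 60 min, against 4.97 and 4.57 at 30 min. The polyamine exporter gene TPO4 overshot, with −1.35 and −2.23 at 60 min against 1.51 and 0.93 at 30 min. The same was seen for the glucose transporter gene HXT4, at −1.38 and −1.69 at 60 min against 0.75 and 1.36 at 30 min, and for MRK1, a homolog of glycogen synthase kinase 3, at −0.45 and −1 against 1.87 and 1.53. SPL2, an inhibitor of low-affinity phosphate uptake, fell by 2.98, the GATA-type factor gene GAT4 fell by 2.48 and the galactose permease gene GAL2 fell by 2.42. The open reading frames YKL066W, YLR177W and YDL026W fell by 3.08, 2.75 and 2.69. YKL066W had a reference signal well above background on only 1 of 2 arrays at each time, lay at 5.16 in A and 3.14 in B at 30 min, and was not called without replicate A (adjusted p = 0.0701).

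**Figure D3:**
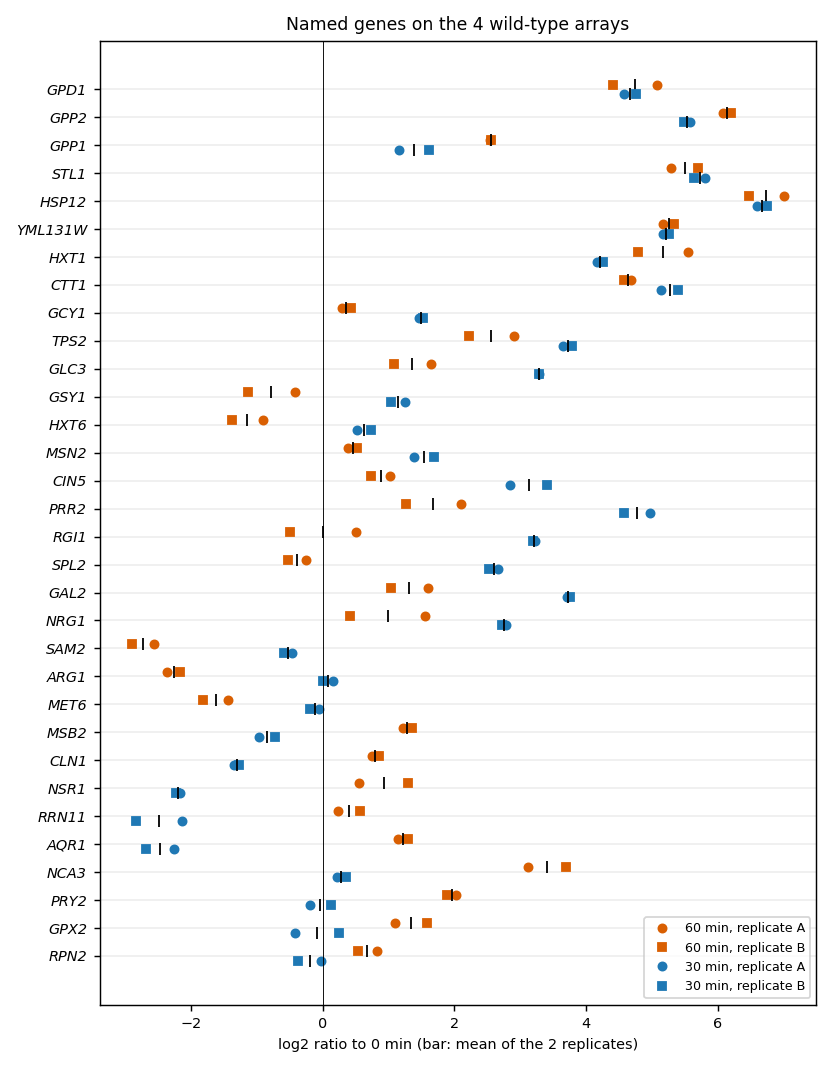
Log2 ratio to 0 min of 32 named genes on the 4 wild-type arrays, with 60 min above 30 min for each gene, circles for replicate A, squares for replicate B and a bar at the mean. GPD1, STL1 and HSP12 overlap between times, PRR2, RGI1 and SPL2 lie lower at 60 min, and NSR1, RRN11 and AQR1 cross from below to above the 0 min level.

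Most glycerol synthesis genes stayed far above the unstressed level. GPD1, the NAD-dependent glycerol 3-phosphate dehydrogenase that commits carbon to glycerol, was at 5.08 in A and 4.41 in B at 60 min, against 4.57 and 4.76 at 30 min, and the groups overlapped (change 0.08 ± 0.30, adjusted p = 0.833). The glycerol 3-phosphatase gene GPP2 was at 6.07 and 6.2 at 60 min, against 5.58 and 5.49 at 30 min, without a call (adjusted p = 0.125), whereas its paralog GPP1 rose, with 2.54 and 2.56 at 60 min against 1.16 and 1.61 at 30 min (change 1.17 ± 0.16, adjusted p = 2.39e-05). The sequences of GPP1 and GPP2 are much alike, and probes of the pair may not tell them apart fully. GPD2, the isoenzyme tied to growth without oxygen, fell late, with −0.60 and −0.23 at 60 min against −0.14 and 0.38 at 30 min. Of these 4 genes 1 was higher, 1 lower and 2 had no call, shares of 25% each against 28.8% and 33.6% of all probes. The median change was 0.34 against −0.04 over all probes, and 1.74 after scaling to a common spread.

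Of 10 genes of glycerol transport and breakdown, 3 were higher, 2 lower and 5 had no call, that is 30% higher and 20% lower against 28.8% and 33.6% of all probes. The median change was −0.07, and turned to 0.08 with the deposited log ratios and 0.2 after scaling to a common spread. STL1, the glycerol importer of the plasma membrane, was at 5.29 and 5.70 at 60 min, against 5.81 and 5.64 at 30 min (adjusted p = 0.672). DAK1, which phosphorylates dihydroxyacetone, rose to 3.04 and 2.89 at 60 min, against 1.84 and 2.21 at 30 min. GCY1, a glycerol dehydrogenase, fell to 0.29 and 0.43 at 60 min, against 1.46 and 1.52 at 30 min. DAK2 had 0.46 in A and 2.20 in B as its differences, was well above background at 30 min on 1 of 2 arrays, and lost its call without replicate B (adjusted p = 0.385). The reductase gene YPR1 rose by 0.58 but was not called without replicate A (adjusted p = 0.181). STL1 and DAK1 were both far above the 0 min level at either time.

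Within the HOG pathway, 7 of 20 genes were higher, 5 lower and 8 had no call, with a median change of 0 (−0.01 after scaling to a common spread). These shares of 35% and 25% lie near the 28.8% and 33.6% of all probes. HOG1 stood at 0.07 and −0.02 at 60 min, against 0.05 and 0.05 at 30 min, and PBS2, its kinase, at 0.03 and −0.18 against −0.22 and 0.03. The largest rise was in MSB2, a mucin-type osmosensor, at 1.22 and 1.35 at 60 min against −0.96 and −0.73 at 30 min. Its change was 2.13 ± 0.15 (adjusted p = 1.63e-07). The second mucin-type sensor gene HKR1 rose by 1.18 and the kinase gene STE20 by 1.1, both after an early fall. SSK1, the response regulator of the Sln1 branch, fell to −0.13 and −0.33 at 60 min, against 0.82 and 0.99 at 30 min. At 60 min MSB2 was above the 0 min level by the test, and HKR1 did not differ from it by the test.

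The 20 genes known to be induced through Hog1 were all above the 0 min level at both times by the test. Of all probes, 38.9% were above it at 30 min and 30.5% at 60 min. Between the times 1 of the 20 was higher, 8 were lower and 11 had no call. The share lower, 40%, lies near the 33.6% of all probes, and the share higher was 5% against 28.8%. The median change of these genes was −0.22, which became 1.05 when all arrays were scaled to a common spread. Their median level was 3.32 in A and 3.24 in B at 60 min, against 3.93 and 4.03 at 30 min. HSP12, a small membrane-stabilizing stress protein, stood at 7 and 6.47 at 60 min, against 6.60 and 6.74 at 30 min, and was among the highest ratios at either time. The sodium pump gene ENA1, which has near-identical neighbors, was at 1.74 and 1.01 at 60 min, against 1.42 and 1.74 at 30 min (adjusted p = 0.496). CTT1, the cytosolic catalase, fell to 4.68 and 4.58 at 60 min, against 5.14 and 5.40 at 30 min (change −0.63 ± 0.21, adjusted p = 0.0198), a call lost without replicate B (adjusted p = 0.259). SPI1, a cell wall protein of stationary phase, fell by 1.07, the reticulon gene RTN2 by 0.99, HOR7, a small stress protein, by 0.98 and FMP48, a kinase gene, by 0.81. HOR7 was not called without replicate B (adjusted p = 0.234) and FMP48 not without either replicate.

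The highest early rises divided into kept and slightly reversed ones. Among the kept ones, the oxidoreductase-like gene YML131W was at 5.17 and 5.34 at 60 min, against 5.16 and 5.25 at 30 min. The aldehyde dehydrogenase gene ALD3 was at 5.44 and 5.47 at 60 min, against 5.83 and 5.84 at 30 min (adjusted p = 0.109), and the transketolase gene TKL2 at 4.66 and 4.96 against 5.26 and 5.32 (adjusted p = 0.0783). ALD3 and TKL2 were far above the 0 min level on all 4 arrays. YBR116C, the open reading frame numbered next to TKL2, was at 5.66 and 6.13 at 60 min, against 6.36 and 6.56 at 30 min. RTC3, a stress-induced gene, fell to 4.53 and 4.46 at 60 min, against 5.17 and 5.15 at 30 min. GID10, a substrate receptor of a ubiquitin ligase, fell to 4.49 and 4.06, against 5.19 and 5.52. The calls of YBR116C (adjusted p = 0.164 without replicate A), RTC3 (adjusted p = 0.069 without A and 0.0971 without B) and GID10 (adjusted p = 0.253 without B) were lost without a replicate, and scaling to a common spread turned the direction of all 3, of ALD3 and TKL2 and of CTT1, SPI1, RTN2 and FMP48.

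Most glycogen and trehalose genes were lower at 60 than at 30 min. Of 12 glycogen genes 9 were lower at 60 min, 1 was higher and 2 had no call, with a median change of −0.97. That is 75% lower and 8.33% higher, against 33.6% and 28.8% of all probes. GSY1, a glycogen synthase, fell to −0.42 and −1.14 at 60 min, against 1.25 and 1.03 at 30 min (change −1.92 ± 0.21, adjusted p = 3.58e-06), and so ended below the unstressed level. GLC3, the branching enzyme, fell to 1.64 and 1.08 at 60 min, against 3.28 and 3.28 at 30 min, while the primer protein gene GLG1 fell by 1.90 and PIG2, a regulator of glycogen synthase, by 1.92. Of 7 trehalose genes 5 were lower (71.4%) and 2 had no call (median change −0.64, or 0.07 after scaling to a common spread). All 7 were still above the 0 min level at 60 min, against 30.5% of all probes. TPS2, the trehalose 6-phosphate phosphatase, was at 2.90 and 2.22 at 60 min, against 3.65 and 3.79 at 30 min. The synthase subunit genes TPS1 and TSL1 fell by 0.64 and 0.71, and ATH1, which breaks trehalose down outside the cytosol, by 0.69, the last not called without replicate B (adjusted p = 0.197).

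Heat shock protein genes were called about as often as all probes. Of 26 heat shock protein genes 7 were higher, 8 lower and 11 had no call, that is 26.9% and 30.8% against 28.8% and 33.6% of all probes, with a median change of −0.02, which was 0.11 with the deposited log ratios and 0.44 after scaling to a common spread. YDJ1, a cytosolic partner of Hsp70, rose to 1.45 and 1.30 at 60 min, against −0.34 and −0.41 at 30 min. HSP42, a small heat shock protein that gathers misfolded proteins, fell to 2.07 and 1.45 at 60 min, against 3.54 and 3.14 at 30 min. HSP30, a plasma membrane stress protein, fell by 1.5 and the mitochondrial chaperone gene MDJ1 by 1.07. Of 13 hydrophilins and small stress proteins, 6 fell, 2 rose and 5 had no call. These shares were 46.2% and 15.4%, against 33.6% and 28.8% of all probes. All 13 were above the 0 min level at both times, against 38.9% of all probes at 30 min and 30.5% at 60 min. Their median change was −0.41, or 0.68 after scaling to a common spread. STF2, which helps cells through drying, fell to 0.67 and 0.09 at 60 min, against 1.73 and 1.80 at 30 min. TMA10 fell by 1.12, a call lost without replicate B (adjusted p = 0.239).

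Of 20 antioxidant genes 4 were higher, 8 lower and 8 had no call, shares of 20% and 40% that lie near the 28.8% and 33.6% of all probes (median change 0.01, with a sign that changed between the alternatives). GPX2, a glutathione-type peroxidase gene, came up late, to 1.1 and 1.58 at 60 min against −0.42 and 0.25 at 30 min (change 1.43 ± 0.09, adjusted p = 4.72e-08). The peroxiredoxin gene AHP1 was at 1.32 and 1.49 at 60 min, against 0.21 and 0.14 at 30 min. GPX1, a relative of GPX2, fell to 0.10 and 0.04 at 60 min, against 0.80 and 1.43 at 30 min, with unequal differences of −0.70 in A and −1.40 in B. GPX1 thus fell while GPX2 and AHP1 rose.

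Ribosome biogenesis genes rose between 30 and 60 min. Of 135 ribosome biogenesis genes 119 were higher at 60 than at 30 min (against 28.8% of all probes), 0 were lower and 16 had no call, and the median change was 0.79 in A and 1.53 in B. Their median level was 0.10 in A and 0.40 in B at 60 min, against −0.83 and −1.13 at 30 min. At 30 min 123 of them were below the 0 min level, and at 60 min 12 were below it and 66 above it. Of all probes 37.5% were below it at 30 min, and at 60 min 29.6% were below and 30.5% above it. The helicase gene DHR2 was at 0.38 and 1.09 at 60 min, against −1.33 and −1.98 at 30 min, and UTP4, part of the small subunit processome, at 0.27 and 0.65 against −1.71 and −2.11. Of 27 subunits and factors of RNA polymerases I and III, which make ribosomal and transfer RNA, 21 were higher (77.8%), 1 lower (3.7%) and 5 had no call (median change 1.04). RPC19, shared by both polymerases, rose by 2.12, RPA12 of polymerase I by 1.89 and RPC31 of polymerase III by 1.72. The median changes of both lists kept their sign under every alternative that was run.

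Of 137 cytosolic ribosomal protein genes 29 were higher, 42 lower and 66 had no call, that is 21.2% and 30.7% against 28.8% and 33.6% of all probes, with a median change of −0.13 in A and 0 in B. Their median level was −0.42 in A and −0.21 in B at 60 min, against −0.35 and −0.22 at 30 min. At 60 min, against 29.6% of all probes, 103 of these genes were below the 0 min level. Of their 91 early falls 62 were kept and 29 reversed, whereas of all early falls 30.6% were kept and 61.8% reversed. Another 15 of the 137 genes fell late, against 277 of all 6131 probes. The exceptions were led by RPS9A, which rose to 0.48 and 0.57 at 60 min, against −1.47 and −1.32 at 30 min, and by RPL22B, RPL7B and RPL27B, which rose by 0.99, 0.92 and 0.84. Each of these is the copy of a duplicated gene, and many ribosomal protein pairs are near identical, so probes may read both copies. Of 34 translation factors 21 were higher (61.8%), 3 lower (8.82%) and 10 had no call (median change 0.38). NIP1, a subunit of initiation factor 3, was at −0.24 and 0.42 at 60 min, against −1.71 and −1.61 at 30 min, while TIF35 of the same factor rose by 1.1 and FUN12, which joins the ribosomal subunits, by 0.84. ANB1, the form of elongation factor 5A used without oxygen, fell by 1.48.

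**Figure D4:**
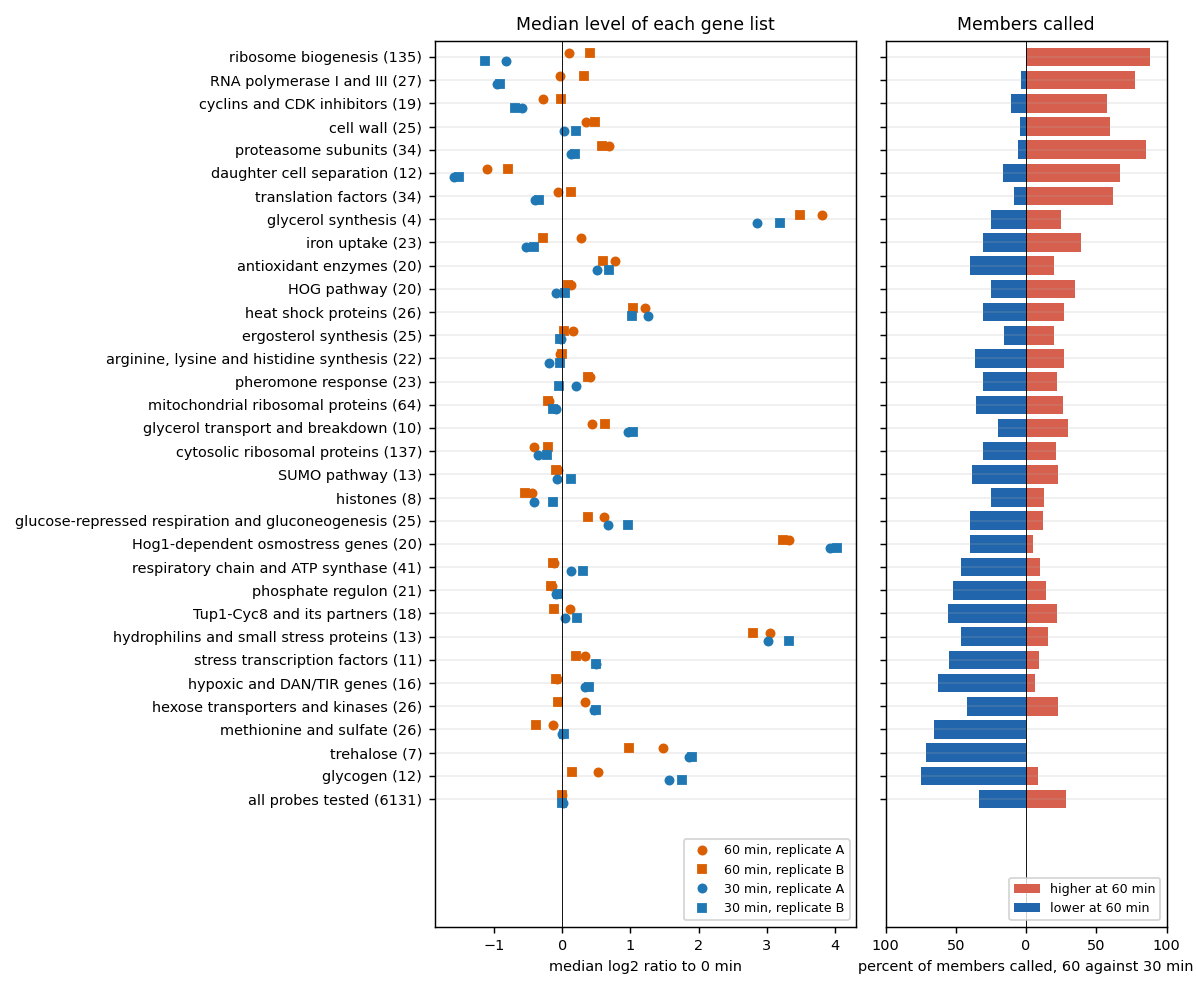
Left, median log2 ratio to 0 min of 32 gene lists and of all probes on each wild-type array, with 60 min drawn above 30 min and the number of members tested in brackets. Right, percent of members called higher or lower at 60 against 30 min. Ribosome biogenesis, RNA polymerase I and III and proteasome genes had 119 of 135, 21 of 27 and 29 of 34 members higher, while 9 of 12 glycogen and 5 of 7 trehalose genes were lower. Of all probes 28.8% were higher and 33.6% lower.

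Most proteasome genes rose, 18 of them late. Of 34 members of the list 29 were higher (85.3%, against 28.8% of all probes), 2 lower (5.88%, against 33.6%) and 3 had no call. The median change was 0.57 in A and 0.40 in B. Their median level was 0.68 in A and 0.58 in B at 60 min, against 0.12 and 0.18 at 30 min. At 60 min 33 of 34 were above the 0 min level, 18 of them by a late rise. Of all probes 30.5% were above it, and 235 of 6131 rose late. RPN2, a subunit of the regulatory particle, was at 0.83 and 0.53 at 60 min, against −0.02 and −0.37 at 30 min, while RPN1 rose by 0.73 and the core subunit gene PRE1 by 0.81. One of the lower members was RPN4, which is not a subunit but the transcription factor of proteasome genes. It fell to 1.37 and 0.91 at 60 min, against 2.33 and 2.33 at 30 min (change −1.19 ± 0.10, adjusted p = 4.72e-07), and so was highest at the earlier time.

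Genes of stress transcription factors were mostly lower at 60 min. Of 11 tested (12 listed) 6 fell, 1 rose and 4 had no call, with a median change of −0.43. The shares were 54.5% lower and 9.09% higher, against 33.6% and 28.8% of all probes. CIN5, a bZIP factor of osmotic stress, fell to 1.02 and 0.74 at 60 min, against 2.85 and 3.41 at 30 min (change −2.25 ± 0.22, adjusted p = 1.46e-06). MSN2, the main activator of the general stress response, fell to 0.39 and 0.52 at 60 min, against 1.39 and 1.69 at 30 min, GIS1 by 1.62 and MSN1 by 0.72. SKO1, the factor that carries Hog1 to its target promoters, fell late, with −0.34 and −0.53 at 60 min against −0.08 and 0.07 at 30 min.

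SKO1 also belongs with the corepressor Tup1-Cyc8 and the proteins that bring it to DNA, of which 10 of 18 tested (19 listed) were lower, 4 higher and 4 had no call, with a median change of −0.41. That is 55.6% lower and 22.2% higher, against 33.6% and 28.8% of all probes. TUP1 was at 0.12 and 0.17 at 60 min, against −0.50 and −0.30 at 30 min (adjusted p = 0.304), and CYC8 at 0.13 and −0.23 against −0.13 and −0.60 (adjusted p = 0.704). The 60 and 30 min values did not overlap for TUP1 and overlapped for CYC8, and neither difference was called. The changes were 0.55 ± 0.45 for TUP1 and 0.32 ± 0.68 for CYC8, with a limma SE that takes in the spread of all groups. Of the recruiting factors, NRG1, a repressor of glucose-repressed genes, fell to 1.55 and 0.42 at 60 min, against 2.78 and 2.72 at 30 min, and RFX1, the repressor of DNA damage genes, fell by 1.20. MIG2, a repressor that acts in high glucose, went the other way, to 0.10 and −0.18 at 60 min against −1.37 and −1.49 at 30 min.

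In the SUMO pathway 3 of 13 genes were higher, 5 lower and 5 had no call (median change −0.11), shares of 23.1% and 38.5% against 28.8% and 33.6% of all probes. SMT3 itself was at −0.52 and −0.20 at 60 min, against −0.99 and −0.72 at 30 min (change 0.49 ± 0.07, adjusted p = 3e-05), and UBC9, the conjugating enzyme, rose by 0.85. SLX5, a subunit of a SUMO-targeted ubiquitin ligase, fell to 0.41 and 0.25 at 60 min, against 2.11 and 1.54 at 30 min, and the SUMO protease gene ULP2 fell by 0.68.

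Of 26 hexose transporter and kinase genes 11 were lower, 6 higher and 9 had no call, that is 42.3% lower and 23.1% higher against 33.6% and 28.8% of all probes, with a median change of −0.44 (−0.21 after scaling to a common spread). HXT1, the low-affinity glucose transporter made in high glucose, was at 5.54 in A and 4.79 in B at 60 min, against 4.16 and 4.25 at 30 min (change 0.96 ± 0.24, adjusted p = 0.00357), a call lost without replicate A (adjusted p = 0.165). The high-affinity transporter gene HXT6 was at −0.91 and −1.38 at 60 min, against 0.52 and 0.74 at 30 min, and HXT7 at −0.80 and −1.32 against 0.62 and 0.82. These 2 genes are near identical, so the probes may read both, and neither was called without replicate B (adjusted p = 0.0818 and 0.108). HXT1 was far above the unstressed level at both times, while HXT4, HXT6 and HXT7 were below it at 60 min.

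Among 25 glucose-repressed genes tested (26 listed), 10 were lower, 3 higher and 12 had no call, that is 40% and 12% against 33.6% and 28.8% of all probes (median change −0.17, and 0.10 after scaling to a common spread). JEN1, the lactate importer, fell to 0.89 and 0.43 at 60 min, against 2.21 and 2.30 at 30 min, IDP2, a cytosolic isocitrate dehydrogenase gene, by 1.46, the activator gene CAT8 by 1.15 and the acetate transporter gene ADY2 by 1.1. Of 41 respiratory chain and ATP synthase genes (43 listed) 19 were lower, 4 higher and 18 had no call, that is 46.3% and 9.76% (median change −0.27, and −0.11 after scaling to a common spread). NDI1, the internal NADH dehydrogenase, was at 0.07 and 0.08 at 60 min, against 1.28 and 1.09 at 30 min, and QCR7 and CYT1 of the cytochrome bc1 complex fell by 0.75 and 0.77. ATP19, associated with the ATP synthase, rose by 0.84 and was still below the 0 min level. Of 64 mitochondrial ribosomal protein genes (65 listed) 23 were lower, 17 higher and 24 had no call, shares of 35.9% and 26.6% that lie near those of all probes. The members with the largest changes, RSM10, MRPS17, PET123 and RSM24, all fell, by 1.25, 1.25, 1.21 and 0.93, and had been above the 0 min reference at 30 min. The largest rise among the 17 higher members was close in size, at 0.90. At 30 min 30 of the 64 genes were below the 0 min level and 17 above it, against 37.5% and 38.9% of all probes.

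Of 19 cyclins, inhibitors and regulators 11 were higher at 60 than at 30 min (57.9% against 28.8% of all probes), 2 lower and 6 had no call. The median change was 0.22 in A and 0.93 in B, and the median of the means, 0.72, dropped to 0.12 after scaling to a common spread. At 30 min 15 of the 19 had been below the 0 min level, against 37.5% of all probes. CLN1, a cyclin of the start of the cycle, was at 0.75 and 0.85 at 60 min, against −1.34 and −1.27 at 30 min (change 2.10 ± 0.16, adjusted p = 2.3e-07). PCL1, another cyclin of the same stage, rose late by 1.44. CLB2, the main mitotic cyclin, was at −0.60 and 0.22 at 60 min, against −1.93 and −2.30 at 30 min, and the inhibitor gene FAR1 rose by 1.69. The transcription regulator gene SFG1 was at −1.58 and −1.05 at 60 min, against −3.26 and −3.80 at 30 min, and so was far from recovered.

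Daughter cell separation and histone genes were below the unstressed level at 60 min. All 12 separation genes were below the 0 min level at 60 min, against 29.6% of all probes. Of these genes 8 were higher than at 30 min (66.7%, against 28.8% of all probes), 2 lower (16.7%, against 33.6%) and 2 had no call. The median change was 0.49, and −0.09 after scaling to a common spread. SUN4, a septum glucanase gene, was at −0.88 and −0.40 at 60 min, against −1.96 and −2.50 at 30 min, and AMN1, which acts at the exit from mitosis, at −1.63 and −1 against −2.59 and −2.55. DSE4 rose by 1.30 and SCW11 by 1.07. Of 8 histone genes tested (10 listed) 1 rose, 2 fell and 5 had no call (12.5% and 25% against 28.8% and 33.6% of all probes), and all 8 were below the 0 min level at 60 min. HTZ1, a histone H2A variant, was at −0.66 and −0.36 at 60 min, against −0.05 and 0.17 at 30 min, and the linker histone gene HHO1 at −1.08 and −0.76 against −0.38 and −0.57. HHT1 fell short of the threshold with a change of −0.33 (adjusted p = 0.0535), HHO1 was not called without replicate A, and HTA2 lost its call without either replicate.

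At the cell surface 15 of 25 cell wall genes were higher, 1 lower and 9 had no call, with a median change of 0.46 in A and 0.55 in B. Of the list 60% were higher and 4% lower, against 28.8% and 33.6% of all probes. The glucanase-like gene SCW10 was at 1.04 and 1.21 at 60 min, against −1 and −1.03 at 30 min. CRH1 and UTR2, which link chitin to glucan, rose by 1.59 and 1.81, and GAS1, which lengthens glucan chains, by 1.38. CRH1 stood at 1.26 and 1.02 at 60 min and UTR2 at −0.36 and −0.32, so paralogs that act in the same step ended on opposite sides of the 0 min level. Of 23 pheromone response genes tested (25 listed) 5 were higher, 7 lower and 11 had no call, that is 21.7% and 30.4% against 28.8% and 33.6% of all probes, with a median change of −0.04 that turned to 0.13 after scaling to a common spread. The receptor gene STE2 rose to 0.56 and 0.60 at 60 min, against −0.66 and −0.73 at 30 min, and PRM5 rose late by 1.32. PRM8 and PRM10, 2 pheromone-regulated membrane protein genes, fell by 1.33 and 1.06, and PRM10 moved the other way after scaling to a common spread.

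Genes of methionine synthesis were lower at 60 min. Of 26 methionine and sulfate genes tested (27 listed) 17 were lower and 0 higher, with 9 uncalled, and the median change was −0.46 in A and −0.62 in B. The share lower was 65.4%, whereas 33.6% of all probes were lower and 28.8% higher. SAM2, which makes S-adenosylmethionine, was at −2.56 and −2.89 at 60 min, against −0.47 and −0.58 at 30 min (change −2.20 ± 0.13, adjusted p = 4.72e-08), and its paralog SAM1 at −1.66 and −1.59 against −0.31 and −0.26. The methionine synthase gene MET6 fell by 1.5. MET2, earlier in the route, fell by 1.55 after an early rise and no longer differed from the 0 min level by the test. For arginine, lysine and histidine synthesis 8 of 22 genes tested (25 listed) were lower, 6 higher and 8 had no call, that is 36.4% and 27.3% against 33.6% and 28.8% of all probes, with a median change of −0.03 (0.04 after scaling to a common spread). ARG1, the argininosuccinate synthase, was at −2.36 and −2.16 at 60 min, against 0.15 and 0.01 at 30 min (change −2.34 ± 0.27, adjusted p = 6.25e-06). HIS4 fell late by 1.26, ARG3 fell by 1.26 after an early rise, and ARG4 fell further by 0.85.

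Of 21 phosphate genes 11 were lower, 3 higher and 7 had no call, that is 52.4% and 14.3% against 33.6% and 28.8% of all probes (median change −0.30). PHM7 fell to 2.85 and 1.90 at 60 min, against 4.41 and 4.60 at 30 min, the phosphatase gene PHM8 by 1.62 and the regulator gene PHO2 by 1.20. Of 23 iron uptake genes 9 were higher, 7 lower and 7 had no call, shares of 39.1% and 30.4% that lie near those of all probes. FTR1, the iron permease, was at 0.47 and −0.61 at 60 min, against −1.13 and −1.98 at 30 min, and FIT1, a cell wall mannoprotein that holds siderophores, fell to 2.00 and 1.77, against 3.17 and 3.48. FET3, the oxidase partner of FTR1, differed by 1.82 in A and 0.76 in B and was not called without either replicate, and the heme oxygenase gene HMX1 fell by 1.35. Of 16 hypoxic and DAN/TIR genes 10 were lower (62.5%), 1 higher (6.25%) and 5 had no call (median change −0.43). CYC7, the hypoxic cytochrome c gene, fell by 1.07, COX5B by 0.70 and the repressor gene MOT3 by 0.91, with CYC7 and COX5B not called without replicate B (adjusted p = 0.118 and 0.117). Of 25 ergosterol genes tested (27 listed) 5 rose, 4 fell and 16 had no call, shares of 20% and 16% that are below those of all probes, with a median change of −0.02 (0.01 after scaling to a common spread). ERG3, a sterol desaturase gene, rose late to 1.14 and 1.31 at 60 min, against −0.29 and −0.05 at 30 min, ERG1 rose by 1.01, and ECM22, an activator of sterol genes, fell by 0.96. HES1 fell by 1.06 and was not called without either replicate.

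Among the late rises, NCA3, of the SUN family of wall-associated proteins, was at 3.12 in A and 3.69 in B at 60 min, against 0.21 and 0.35 at 30 min, a rise of 3.12 ± 0.19 (adjusted p = 6.63e-08). PRY2, a secreted sterol-binding protein, was at 2.03 and 1.89 at 60 min, against −0.20 and 0.12 at 30 min, and PRM7 at 1.06 and 1.93 against −0.36 and −0.25. The probe YDL038C, now part of PRM7, was called below the 0 min level at 30 min (−1.35 in A and −0.28 in B) and counted as reversed. Probes of this gene thus fell in different classes. YBR103C-A met the rule for a late rise with 3.45 in A and 0.59 in B at 60 min, so that its size rests on replicate A. The late falls were led by ARG1, CDA1, a chitin deacetylase of the spore wall, which fell by 1.80, and HXT6 and HXT7. Kept falls with the lowest levels included HO, the mating-type switching endonuclease, at −2.90 and −3.63 at 60 min against −2.07 and −3.10 at 30 min (not called without replicate A, adjusted p = 0.11). YJR154W was at −1.79 and −2.17 at 60 min, against −1.67 and −1.76 at 30 min, YDL241W at −1.72 and −1.63 against −2.09 and −1.94, and the copper transporter gene CTR1 at −1.79 and −0.49 against −2.15 and −1.09.

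The same 60 minus 30 min difference was read in the 3 mutant strains, whose 6 pairs of arrays the wild-type values did not use. These arrays did enter the estimate of spread behind the wild-type calls. The choice of probes and the mutant pairs are therefore not independent. Of the 1765 probes higher in the wild type 1622 were higher in 6 of 6 mutant pairs (91.9%), and of the 2063 lower probes 1909 were lower in 6 of 6 (92.5%). Of all probes, the called ones included, 73.1% had 1 sign in all 6, in either direction and whatever the wild-type sign. The labels of replicate B of the double mutant conflict (the source names of 30 and 60 min are exchanged against the titles, which were used). With the titles used, the differences of this pair correlated at r = 0.918 with the wild-type mean across probes. An exchange would turn the sign of that correlation. SPL2 lay between −2.93 and −3.18 in the mutant pairs, against −2.91 and −3.04 in the 2 wild-type pairs. NSR1 lay between 3.06 and 3.65 in the mutants, and MSB2 between 1.98 and 2.27. HXT1 and DAK2 were less regular, from −0.12 to 1.26 and from −0.19 to 0.61. Tests of the wild-type change against the mutant changes made 0 calls with limma (0% of 6131 probes) against the mean of the mutants, and 0 against each mutant. At an unadjusted p under 0.05, 814 probes (13.3%) differed from the mutant mean, 220 from Tup1K270R, 702 from Cyc8-4KtoR and 1049 from the double mutant. Without wild-type replicate B 316 probes were called against the mutant mean, and 16 probes passed the 0.65 cutoff in both replicates. The median SE of the difference from the mutant mean was 0.122, which limits how small a difference these arrays could show.

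**Figure D5:**
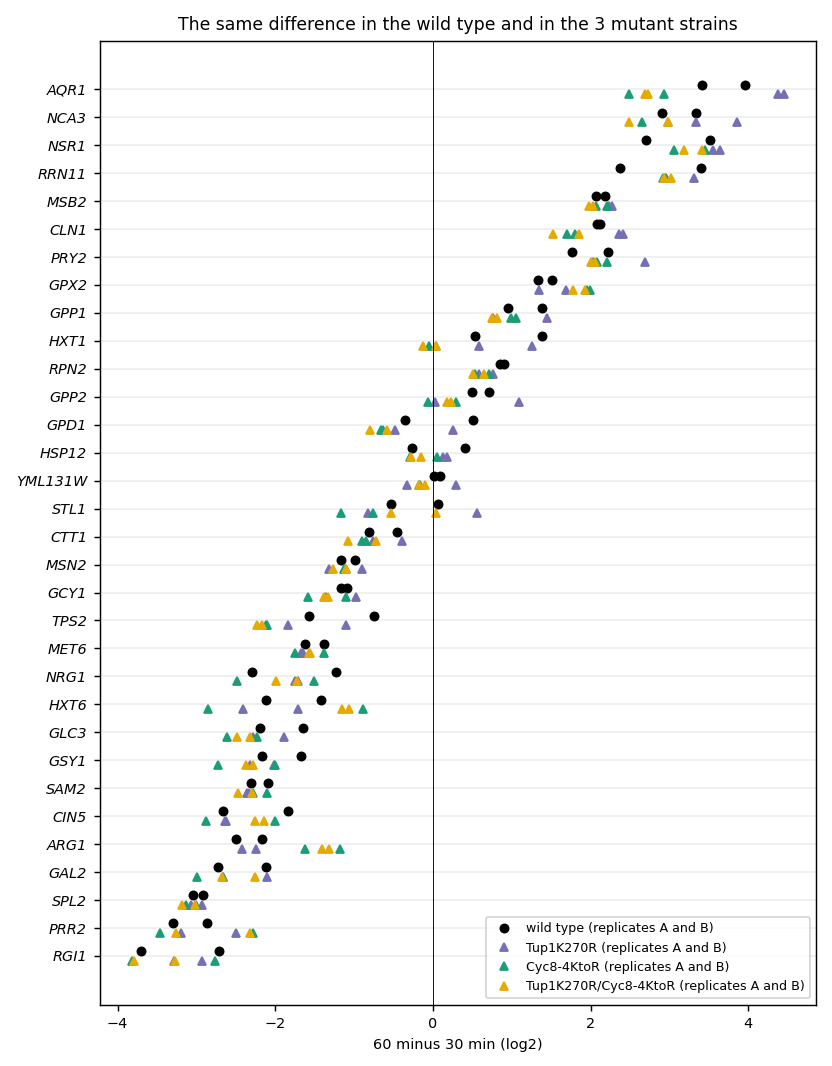
Log2 difference between 60 and 30 min for the 32 named genes, with the 2 wild-type pairs (circles) drawn above the 6 mutant pairs (triangles, 2 for each strain). The wild-type and mutant ranges lie on the same side of 0 for AQR1, NSR1, SPL2 and RGI1, and HXT1 and GPD1 lie around 0 in some strains.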

How the data were processed

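RNA of stressed and unstressed cultures was hybridized to 2-color Agilent arrays. The authors scanned the arrays and deposited spot intensities extracted with Feature Extraction 10.5.1.1, with local background subtracted and no dye normalization. That software also wrote deposited log10 ratios, for which it subtracted background, detrended the signal and normalized the dyes, and the log2 values of the deposited series table matched them, with the sign of the replicate A arrays turned. Both served only as alternatives. Here log2 of Cy5 over Cy3 intensity was loess-normalized within each array, turned to sample over reference, and the spots of a probe averaged. Of 6256 probes, 51 in a region that the study's methods describe as aneuploid in a mutant replicate and 74 with a missing value were left out. A linear model with a term for each of 11 groups and the replicate set as a block was fitted to 22 arrays with limma 3.58.1 in R 4.3.3 (eBayes, 10 residual degrees of freedom), so the spread of all groups entered the wild-type tests. The test against 0 min leaves out the spread of the reference cultures. A probe was called at an adjusted p under 0.05. The replicate letter pairs samples by design, as it marks the shared reference culture, the dye orientation and, within a strain, the culture. Over 55 pairs of groups the deviations of same-lettered arrays correlated between 0.0872 (the wild type at 60 and 30 min) and 0.679. Genes were named as the 12 highest and 12 lowest changes, 4 per class and direction, the members of each list that changed most, and a set of osmotic stress and corepressor genes. The wild-type comparison, its lists and its named genes were chosen with earlier results of these data known. Names of 5756 probes were matched to the R64 annotation. The fit was tested on simulated data. Alternatives covered background correction, normalization, filters, pairing, slide, region, conflicting labels and each replicate left out.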

Additional observations from a re-analysis of the deposited data

Results flagged for a closer look

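YML131W, a kept early rise, had 60 minus 30 min differences of 0.01 and 0.09 in the wild-type pairs, whereas its mean was −0.17 in Cyc8-4KtoR and −0.13 in the double mutant, with both pairs of each mutant below 0. HO, a kept early fall, had −0.83 and −0.52 in the wild-type pairs and a mean of 0.22 in the double mutant, with both of its pairs above 0. These 3 results were picked out because every pair of one strain had the opposite sign to every pair of the other, and the opposite signs themselves were not tested. The limma tests of the wild-type change against each mutant made 0 calls over all probes.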

How the results depend on the processing

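With the deposited log ratios 769 probes were higher and 698 lower at 60 than at 30 min, with 1229 early changes reversed, 625 kept and 166 changes late, and the series table gave 769, 698, 1229, 626 and 166. Scaling all arrays to a common spread gave 879 higher, 846 lower, 979 reversed, 1108 kept and 540 late, so that kept changes outnumbered reversed ones, and turned the direction of 18 named genes, to −0.04 for HTA2, 1.83 for ALD3, 1.54 for TKL2, 1.9 for YBR116C, 1.38 for CTT1, 0.06 for TPS1, 1.3 for RTC3, 0.06 for ATH1, 0.05 for COX5B, 0.11 for TSL1, 0.74 for FMP48, 0.47 for RTN2, 0.41 for PRM10, 0.45 for SPI1, 0.98 for GID10, 0.04 for ADY2, 0.64 for TMA10 and 0.28 for TPS2. That scaling widens the 60 min ratios, whose spread was the narrower (SD 0.652 in A and 0.627 in B, against 0.857 and 0.903 at 30 min). Whether this accounts for each turned direction was not tested. The cutoff of 0.65 in both replicates gave 546 higher, 659 lower, 819 reversed, 281 kept, 120 late and 16 that differed from the mutant mean. The wild-type arrays alone with the replicate block gave 1168 higher and 1381 lower probes, with 2038 reversed, 955 kept and 344 late. In that setting 2466 of the 3828 called probes were called the same way. Without the replicate block, that is without the pairing, 1433 probes were higher and 1578 lower, with 2428 reversed, 1127 kept and 404 late, and 8 named genes lost their call. With either replicate left out, 1402 to 1571 probes were higher, 1569 to 1834 lower, 2231 to 2748 reversed, 982 to 1313 kept and 463 to 490 late, and 0 to 316 differed from the mutant mean. Of the 3828 probes called, 1453 were called the same way with the deposited log ratios, 1652 after scaling and 3011 without the block. With 2 arrays a time point the precision is limited by their number, and 28 called probes were not well above background on all 4 arrays.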
